A study of Saccharomyces cerevisiae with 22 samples.

Results

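The phosphate starvation regulon was followed through 12 expression profiles of budding yeast mutants. Its 10 listed members are *PHO84*, *PHO89*, *PHO5*, *PHO12*, *PHO8*, *PHO81*, *SPL2*, *VTC1*, *VTC3* and *VTC4*, found by gene symbol in the probe annotation among 6373 measured features. No probe carried the symbol *PHO5*, so 9 of the 10 were measured, each by 1 probe printed in 2 spots. The study compared mutants of factors that act on, or bind to, the C-terminal domain (CTD) of RNA polymerase II on 22 two-colour arrays, on each of which mutant RNA in 1 dye met RNA of a wild type culture, the common reference, in the second dye. The 10 profiles in synthetic complete (SC) medium were *sen1-1*, *pcf11-ts2*, *pcf11-2*, and the deletions *ctk1*Δ, *rrp6*Δ, *lrp1*Δ, *set2*Δ, *eaf3*Δ, *rco1*Δ and *rtt103*Δ, on 18 arrays. The 2 profiles in rich medium (YPD) were *rpb1-S2A*, in which serine 2 of each CTD repeat is replaced by alanine, and *ctk1*Δ, on 4 arrays.

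Ctk1 is the kinase of CTD serine 2, Set2 a histone methyltransferase, Eaf3 and Rco1 subunits of the Rpd3S deacetylase, and Rtt103 and Pcf11 CTD-binding factors of mRNA 3′ ends. Sen1 is a helicase of early termination, and Rrp6 and Lrp1 belong to the nuclear exosome. The *sen1* and *pcf11* strains carry temperature-sensitive alleles grown at a permissive temperature, so their factors were altered and not removed. Each of 10 profiles had 2 arrays from separate cultures, replicate a with the mutant in Cy3 and replicate b with the mutant in Cy5. The *pcf11-ts2* profile was replicate a alone and the *pcf11-2* profile replicate b alone. The labels give BY4742 as the strain on every array, but that of *rpb1-S2A* also reads matA, and the strain list of the study places *rpb1-S2A*, *sen1-1* and both *pcf11* mutants in a strain of mating type a. *STE2*, the receptor gene of a cells, had a log2 ratio of 3.84 in *rpb1-S2A*, 4.61 in *sen1-1*, 4.53 in *pcf11-ts2* and 4.32 in *pcf11-2*. *STE3*, the receptor gene of alpha cells, had −3.84, −4.22, −4.45 and −4.04 in the same 4 profiles. In these 4 the mutation and the strain background cannot be told apart, neither against the reference nor against a deletion strain. Probes for the deleted genes gave log2 ratios of −2.46 to −4.06 in the matching strains. By the labels, the reference RNA came from a high-throughput extraction on 8 arrays and a standard one on 14, and its *PHO84* level was lowest on the arrays of *sen1-1* and *pcf11-2*. In *ctk1*Δ in SC, *eaf3*Δ and *rco1*Δ the mutant RNA had the high-throughput label and the reference the standard one. In *ctk1*Δ in YPD and on *rpb1-S2A* replicate a it was the reverse. In the ratios of these arrays mutation and extraction protocol cannot be told apart. The sources used here do not give the medium in which the reference of the YPD arrays was grown. Among the arrays used here there is also no profile of a wild type in YPD, so in the YPD ratios mutation and medium cannot be told apart.

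When phosphate is plentiful, yeast keeps the kinase Pho85 with its cyclin Pho80 active, and the transcription factor Pho4 is held outside the nucleus. When phosphate runs short, the inhibitor Pho81 blocks the kinase, and Pho4 enters the nucleus and switches on genes of phosphate uptake, secreted phosphatases and polyphosphate storage. *PHO84* encodes the high-affinity proton-coupled phosphate transporter and *PHO89* a sodium-coupled one. *PHO5* and *PHO12* encode secreted acid phosphatases and *PHO8* the vacuolar alkaline phosphatase. Spl2 restrains low-affinity transport, and Vtc1, Vtc3 and Vtc4 are subunits of the vacuolar complex that makes polyphosphate. *PHO84* is also a known target of antisense transcription that is sensitive to Rrp6.

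A log2 ratio here is mutant over reference, so that 1 is a doubling. A gene was called when its Benjamini-Hochberg adjusted p in limma was under 0.05 over all 6373 features and its fold was over 1.7, a log2 ratio of 0.766. Over both YPD profiles, 14 of 18 member values rose and 0 fell, where 7.01% and 3.93% of all values did. Over the 10 SC profiles, 8 of 90 rose and 13 fell, where 2.66% and 0.974% of all values did. Of the 8 SC rises, 7 were in *pcf11-ts2*. *PHO8* was called in none of the 12 profiles, and *PHO84* in every one except *rtt103*Δ. All 9 probes were above background in both channels of all 22 arrays, and none was saturated. In cultures measured as a whole, fewer cells with a transcript and less of it per cell cannot be told apart.

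**Figure D1:**
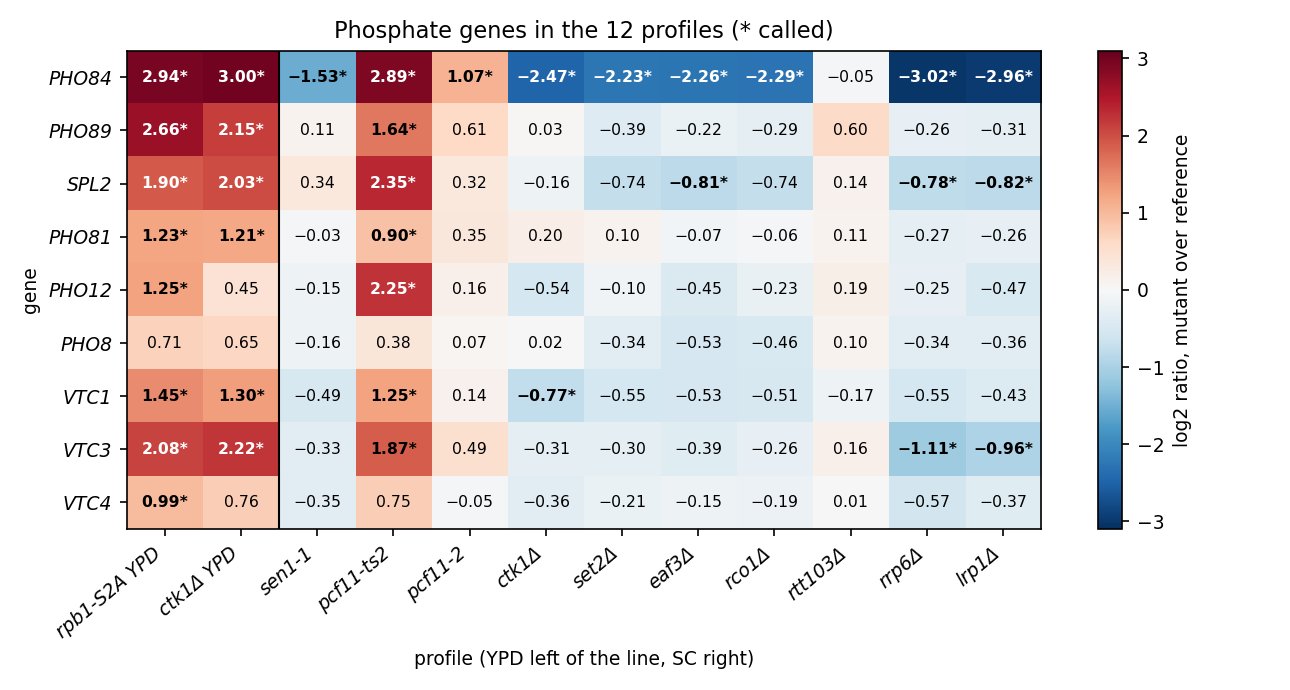
Log2 ratio of mutant over reference (colour and number) for the 9 measured phosphate genes (rows) in the 12 profiles (columns, YPD left of the line and SC right), as estimated by limma. An asterisk and bold type mark a call. The *rpb1-S2A* and *ctk1*Δ profiles in YPD and *pcf11-ts2* in SC are above 0 for all 9 genes, and *PHO84* spans −3.02 to 3.0.

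*PHO84*, the high-affinity transporter, had the widest range of the members. Its 4 YPD arrays read 3.07 and 2.81 in *rpb1-S2A* and 2.88 and 3.12 in *ctk1*Δ. The SC array of *pcf11-ts2* read 2.74, and that of *pcf11-2* read 1.23. These 6 arrays were the only ones far above the reference.

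In *rtt103*Δ the 2 arrays straddled the reference, at −0.15 and 0.06. All 14 arrays of the other 7 SC profiles were below it. The pairs were −1.55 and −1.51 in *sen1-1*, −2.50 and −2.45 in *ctk1*Δ, −2.40 and −2.13 in *eaf3*Δ, −2.26 and −2.32 in *rco1*Δ, −3.32 and −2.73 in *rrp6*Δ, and −3.20 and −2.72 in *lrp1*Δ. The *set2*Δ arrays stood furthest apart, at −3.04 and −1.43 (SD 1.14). In limma the error of *PHO84* is pooled over the profiles, so this spread enters its error in all of them. On *set2*Δ replicate b the 2 spots of the probe differed by 2 on the log2 scale, at −2.43 and −0.42, whereas on the other 21 arrays the spots differed by at most 0.121.

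By limma, *PHO84* rose 7.65-fold in *rpb1-S2A* (log2 ratio 2.94 ± 0.22, standard error, adjusted p = 1.18e-07) and 8.0-fold in *ctk1*Δ in YPD (3.0 ± 0.22, adjusted p = 1.39e-07). In SC it rose 7.44-fold in *pcf11-ts2* (2.89 ± 0.32, adjusted p = 5.55e-05) and 2.10-fold in *pcf11-2* (1.07 ± 0.32, adjusted p = 0.0189). With 1 array each, the *pcf11* estimates are corrected for the dye difference seen in the other profiles, and their errors assume the spread of those profiles. It fell 8.12-fold in *rrp6*Δ (−3.02 ± 0.22), 7.76-fold in *lrp1*Δ (−2.96 ± 0.22) and 5.56-fold in *ctk1*Δ in SC (−2.47 ± 0.22). The falls in *rco1*Δ, *eaf3*Δ and *set2*Δ were 4.88-fold, 4.80-fold and 4.70-fold, and that in *sen1-1* 2.89-fold. The 7 adjusted p-values of these falls ranged between 4.16e-07 and 7.80e-05. Mutant and reference RNA had different extraction labels in *ctk1*Δ in SC, *rco1*Δ and *eaf3*Δ. They had the same label in *rrp6*Δ, *lrp1*Δ, *set2*Δ and *sen1-1*. Without *set2*Δ replicate a the *set2*Δ value was −1.51 and without replicate b −2.95, and it was called either way. Set against the median of the 12 profiles in place of the reference, *PHO84* turned to 0.349 in *sen1-1* and 1.84 in *rtt103*Δ, and its values of −0.59 to −0.35 in *ctk1*Δ in SC, *rco1*Δ, *eaf3*Δ and *set2*Δ were not called.

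**Figure D2:**
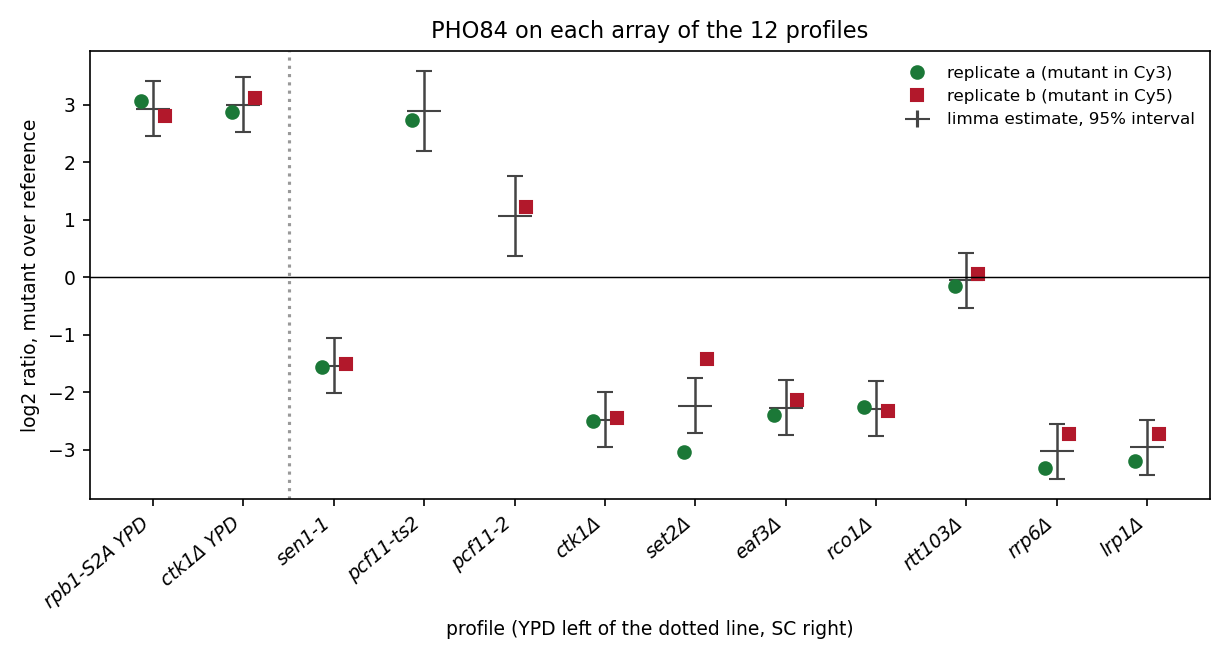
Log2 ratio of *PHO84*, mutant over reference (vertical axis), on each array of the 12 profiles (horizontal axis, YPD left of the dotted line). Circles are replicate a and squares replicate b, and the bars are the limma estimate with its 95% interval. The 4 YPD arrays sit between 2.81 and 3.12, while the *set2*Δ arrays are the most distant pair, at −3.04 and −1.43.

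Ordered by log2 ratio, *PHO84* ran through *rrp6*Δ, *lrp1*Δ, *ctk1*Δ in SC, *rco1*Δ, *eaf3*Δ, *set2*Δ, *sen1-1*, *rtt103*Δ, *pcf11-2*, *pcf11-ts2*, *rpb1-S2A* and *ctk1*Δ in YPD, low to high. Neighbours, here and for the members below, were taken from the fitted order itself, so small gaps between them are built in. Their p-values are adjusted over features and not for this choice of pairs, and only describe the order. Among neighbours in this order, *rtt103*Δ was above *sen1-1* by 1.49 ± 0.31 (adjusted p = 0.00230). No other neighbours differed at the threshold, the nearest being *pcf11-2* and *rtt103*Δ (1.12 ± 0.39, adjusted p = 0.0506) and *pcf11-ts2* and *pcf11-2* (adjusted p = 0.0520).

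*PHO89*, the sodium-coupled transporter, was called only above the reference. The arrays read 2.83 and 2.50 in *rpb1-S2A*, 2.12 and 2.18 in *ctk1*Δ in YPD, and 1.62 in *pcf11-ts2*. On the remaining SC arrays it lay between −0.52 and 0.65, so these 5 arrays did not overlap with the rest. It rose 6.34-fold in *rpb1-S2A*, 4.43-fold in *ctk1*Δ in YPD and 3.12-fold in *pcf11-ts2* (adjusted p = 1.90e-11, 2.39e-10 and 3.82e-07 by limma). In *pcf11-2* and *rtt103*Δ its ratios of 0.61 and 0.60 had adjusted p of 0.000680 and 6.44e-05 but were under the fold minimum. With a normexp offset of 10 in the background correction they were 1.03 and 0.78 and both were called. Its lowest ratio was −0.39, in *set2*Δ, and it was called lower in no profile. On many SC arrays both channels were near background for this gene, so a fall could hardly show. On *ctk1*Δ replicate a in SC, for example, the mutant signal was 60.3 against a background of 39, and the reference signal 62.4 against 48.

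*SPL2*, whose product restrains low-affinity uptake, was called above the reference in the same 3 profiles. Its ratios of 0.34 in *sen1-1*, 0.32 in *pcf11-2* and 0.14 in *rtt103*Δ were also above it but under the fold minimum. The arrays read 1.97 and 1.84 in *rpb1-S2A*, 2.12 and 1.95 in *ctk1*Δ in YPD, and 2.34 in *pcf11-ts2*. The rises were 3.74-fold, 4.09-fold and 5.09-fold, with adjusted p of 1.24e-10, 2.08e-10 and 1.94e-09. Below the reference, 10 arrays of the deletion strains *set2*Δ, *eaf3*Δ, *rco1*Δ, *rrp6*Δ and *lrp1*Δ held it between −0.89 and −0.63. Of these 5 profiles, *lrp1*Δ (−0.82), *eaf3*Δ (−0.81) and *rrp6*Δ (−0.78) were called, while *rco1*Δ and *set2*Δ (−0.74 each) were just under the fold minimum. With a normexp offset of 10 *rco1*Δ and *set2*Δ had −0.94 and −0.88, and in the authors' processed ratios −0.79 and −0.83. Both were called in either setting. In *ctk1*Δ in SC *SPL2* read −0.15 and −0.17. The *ctk1*Δ profile was 0.58 ± 0.09 above that of *set2*Δ, its neighbour in the order (adjusted p = 0.000364). The *eaf3*Δ call was lost without replicate a (−0.73) and the *rrp6*Δ call without replicate b (−0.72).

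*PHO81*, the inhibitor of Pho80-Pho85, moved in the same 3 profiles by less. It read 1.36 and 1.09 in *rpb1-S2A*, 1.42 and 1.00 in *ctk1*Δ in YPD, and 1.03 in *pcf11-ts2*. These arrays were all above the other SC arrays, which lay between −0.58 and 0.41. The rises were 2.34-fold, 2.31-fold and 1.86-fold (adjusted p = 4.18e-07, 6.77e-07 and 0.00119 by limma).

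The phosphatase genes were called in fewer profiles. *PHO12* read 1.46 and 1.05 in *rpb1-S2A*, 0.19 and 0.71 in *ctk1*Δ in YPD, and 2.36 in *pcf11-ts2*. It rose 2.38-fold in *rpb1-S2A* and 4.75-fold in *pcf11-ts2* (adjusted p = 1.25e-06 and 2.23e-06), whereas in *ctk1*Δ in YPD its ratio of 0.45 was under the fold minimum. Its *pcf11-ts2* value, from 1 array in SC, was above that of *rpb1-S2A* in YPD, its neighbour in the order, by 1.00 ± 0.21. Between these profiles mutation and medium cannot be told apart. *PHO11*, a nearly identical acid phosphatase gene, had no probe of its own, so the *PHO12* signal may hold its RNA too.

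*PHO8* had the narrowest range of the members over the SC profiles. Its YPD arrays read 0.80 and 0.62 in *rpb1-S2A* and 0.76 and 0.53 in *ctk1*Δ, all above the SC arrays, of which the highest was *pcf11-ts2* at 0.51. The fitted ratios of 0.71 and 0.65 had adjusted p of 7.06e-05 and 0.000197 but were under the fold minimum. With a smaller normexp offset of 10 in the background correction they became 0.92 and 0.78, and both were called. In SC its lowest value was −0.53, in *eaf3*Δ, whose arrays read −0.12 and −0.94.

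The polyphosphate genes followed one another in YPD and *pcf11-ts2*, in unequal size. *VTC3* read 1.98 and 2.19 in *rpb1-S2A*, 2.24 and 2.21 in *ctk1*Δ in YPD, and 1.82 in *pcf11-ts2*. It rose 4.24-fold, 4.66-fold and 3.65-fold (adjusted p = 2.12e-10, 2.54e-10 and 1.99e-07). *VTC1* rose 2.74-fold, 2.46-fold and 2.38-fold in these profiles.

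*VTC4*, the catalytic subunit, rose 1.98-fold in *rpb1-S2A* (0.99 ± 0.07, adjusted p = 7.10e-08). In *ctk1*Δ in YPD and in *pcf11-ts2* its ratios of 0.76 and 0.75 were just under the fold minimum, with adjusted p of 1.23e-06 and 0.000239.

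Below the reference, *VTC3* fell in both exosome mutants. It read −1.25 and −0.96 in *rrp6*Δ and −1.0 and −0.92 in *lrp1*Δ, whereas the fitted ratios of *sen1-1*, *ctk1*Δ, *set2*Δ, *eaf3*Δ and *rco1*Δ lay between −0.39 and −0.26. The falls were 2.15-fold and 1.95-fold (adjusted p = 2.70e-07 and 1.44e-06), and the *lrp1*Δ profile was 0.58 ± 0.11 below that of *eaf3*Δ, the next in order (adjusted p = 0.00299). *VTC1* was called lower only in *ctk1*Δ in SC, at −0.89 and −0.65 (1.7-fold, adjusted p = 5.11e-06, not called without replicate a), next to uncalled ratios between −0.55 and −0.43 in *sen1-1*, *set2*Δ, *eaf3*Δ, *rco1*Δ, *rrp6*Δ and *lrp1*Δ.

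Counted by profile, 8 of the 9 members rose in *rpb1-S2A*, where 7.23% of all features did, and 6 in *ctk1*Δ in YPD, where 6.79% did. In *pcf11-ts2* 7 rose, against 3.17% of all features, and in *pcf11-2* 1 rose, against 5.54%. The members called lower were 3 in *rrp6*Δ (0.596% of all features), 3 in *lrp1*Δ (0.282%), 2 in *ctk1*Δ in SC (2.84%) and 2 in *eaf3*Δ (0.235%). In *set2*Δ, *rco1*Δ and *sen1-1* only *PHO84* was called lower, where 0.267%, 0.141% and 1.29% of all features were. *SPL2* was just under the fold minimum in *set2*Δ and *rco1*Δ, and was called lower in both with a normexp offset of 10. In *rtt103*Δ, where 1.27% of all features changed, 0 were called by limma, with 1 at an unadjusted p under 0.05 (*PHO89*, under the fold minimum, and called with a normexp offset of 10). The median ratio of the members was 1.45 in *rpb1-S2A*, 1.30 in *ctk1*Δ in YPD and 1.64 in *pcf11-ts2*, while the median of all features lay between −0.00845 and 0.0136 in the 12 profiles. All 12 profiles share the reference, so that agreement between them is not independent.

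All 9 members differed among the 10 SC profiles in limma's moderated F-test, where 27.6% of all features did. Here a difference needed an adjusted p under 0.05 and a distance between the highest and lowest profile over the fold minimum. Without the dye term 8 of 9 differed. The highest SC profile was *pcf11-ts2* for all 9. The lowest was *rrp6*Δ for *PHO84*, *PHO81*, *VTC3* and *VTC4*, *ctk1*Δ for *PHO12* and *VTC1*, *set2*Δ for *PHO89*, *eaf3*Δ for *PHO8* and *lrp1*Δ for *SPL2*. The distance between the highest and lowest SC profile was 5.92 for *PHO84*, 3.17 for *SPL2*, 2.97 for *VTC3* and 2.78 for *PHO12*, and 0.91 for *PHO8*.

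The media were compared in *ctk1*Δ, the mutant profiled in both. In YPD minus SC, 8 of the 9 members were higher, where 1.52% of all features were, and 0 were lower, where 1.22% were. *PHO84* differed by 5.47 ± 0.31 (44.5-fold, adjusted p = 1.52e-07 by limma), from the arrays at 2.88 and 3.12 in YPD and −2.50 and −2.45 in SC. *VTC3* differed by 2.53, *SPL2* by 2.19, *PHO89* by 2.12 and *VTC1* by 2.07, and *VTC4*, *PHO81* and *PHO12* by 1.12, 1.01 and 0.98. *PHO8* had 0.63 ± 0.15, under the fold minimum. *PHO12* rested on replicate b in YPD: without it the difference was 0.57, under the fold minimum. The labels also give different RNA extraction protocols for these profiles, standard for the mutant in YPD and high-throughput in SC, and the reverse for the reference, so medium and protocol cannot be told apart.

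Both YPD mutants were then compared with each other. They differ in mating type too (*STE2* at 3.84 in *rpb1-S2A* and 0.00 in *ctk1*Δ), and the mutant RNA of *rpb1-S2A* replicate b has the high-throughput label while the other 3 arrays have the standard one. In *rpb1-S2A* minus *ctk1*Δ, 1 of the 9 members was higher (0.549% of all features) and 0 were lower (1.43%). This was *PHO12* (0.80 ± 0.17, adjusted p = 0.00768), which was not called without *ctk1*Δ replicate a (0.39) or without *rpb1-S2A* replicate a (0.70). *PHO89* was higher by 0.52 ± 0.10 (adjusted p = 0.00548), below the fold minimum. *PHO84* had a difference of −0.06 with a 95% interval of −0.74 to 0.61, and *VTC3* one of −0.14 with an interval of −0.37 to 0.10.

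The 2 *pcf11* alleles were not alike for this regulon. In *pcf11-ts2* minus *pcf11-2*, 6 of 9 members were higher, where 0.643% of all features were. *PHO12* read 2.36 in *pcf11-ts2* and 0.04 in *pcf11-2*, and differed by 2.09 ± 0.25 (adjusted p = 0.000579). *SPL2* read 2.34 in *pcf11-ts2* and 0.33 in *pcf11-2*, and differed by 2.02 ± 0.14 (adjusted p = 6.93e-06). *VTC3*, *VTC1*, *PHO89* and *VTC4* differed by 1.37, 1.11, 1.03 and 0.81. Without the dye term *VTC1* (0.89) and *VTC4* (0.49) were not called, nor was *VTC4* in the authors' processed ratios (0.54) or *PHO89* with median centring in place of loess (0.94). *PHO84*, at 1.82 ± 0.46, missed the threshold with an adjusted p of 0.0520, and passed it when either *set2*Δ array (1.68, adjusted p = 0.00304) or either *ctk1*Δ array in YPD (1.83, adjusted p = 0.0422) was left out. The 2 alleles were hybridized once each and in opposite dyes, so this comparison has no replicate of its own. Allele and culture cannot be told apart, and the dye difference is taken from the other profiles.

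Against the mean of the *pcf11* alleles, *sen1-1* was lower for 6 of 9 members, where 1.8% of all features were lower. *PHO84* differed by −3.52 ± 0.31 (adjusted p = 3.08e-06). *VTC3*, *PHO12*, *VTC1*, *PHO89* and *SPL2* had differences of −1.51, −1.35, −1.19, −1.02 and −1.0. The mean joins unlike alleles, and part of these differences came from the *pcf11-ts2* array alone. *SPL2* had a ratio of 0.34 in *sen1-1* and 0.32 in *pcf11-2* (adjusted p = 0.964), *PHO12* −0.15 in *sen1-1* and 0.16 in *pcf11-2*, and *PHO89* 0.11 in *sen1-1* and 0.61 in *pcf11-2*. *VTC4* (−0.70) and *PHO81* (−0.65) were under the fold minimum, with adjusted p of 0.000152 and 0.00478.

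**Figure D3:**
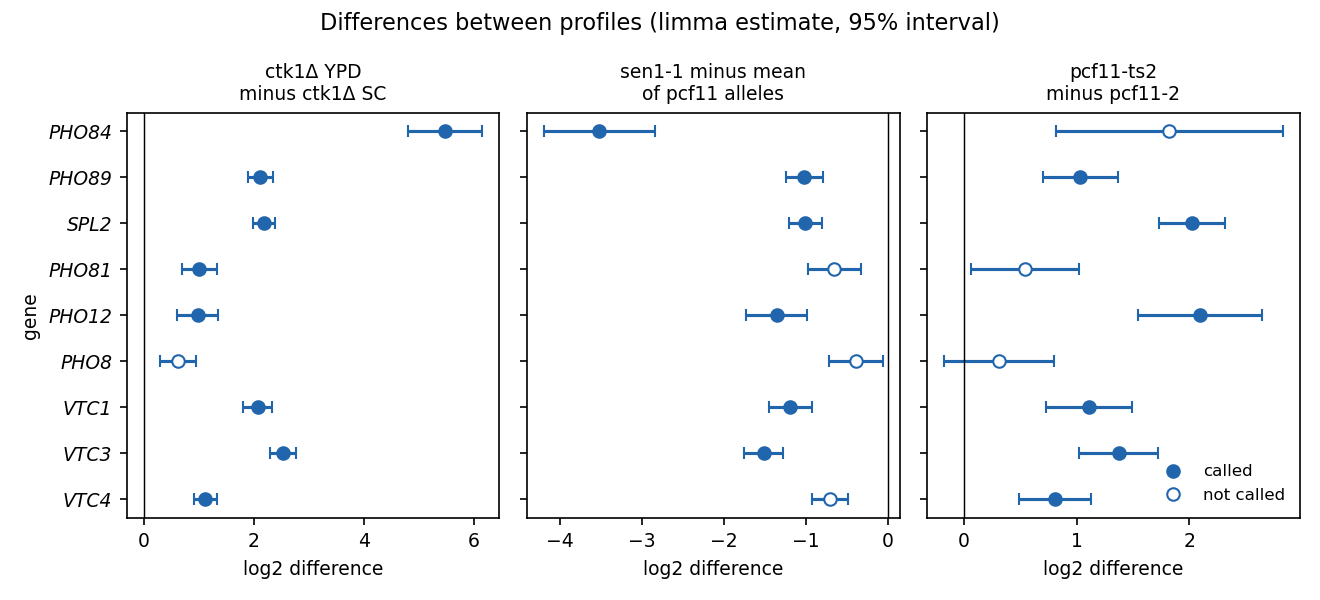
Log2 difference (horizontal axis) for each of the 9 phosphate genes (vertical axis) between *ctk1*Δ in YPD and in SC, between *sen1-1* and the mean of the *pcf11* alleles, and between *pcf11-ts2* and *pcf11-2*. Points are limma estimates with 95% intervals, and filled points are called. All 9 estimates are above 0 in the first and last panels and below 0 in the middle one, with *PHO84* at 5.47, −3.52 and 1.82 from left to right.

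The *sen1-1* and *ctk1*Δ strains in SC differ in mating type (*STE2* at 4.61 in *sen1-1* and 0.20 in *ctk1*Δ), and their references in extraction label, high-throughput for *sen1-1* and standard for *ctk1*Δ, so that mutation, strain and protocol cannot be told apart. In *sen1-1* minus *ctk1*Δ, 1 of 9 members was higher (3.53% of all features) and 0 were lower (3.88%). *PHO84* read −1.55 and −1.51 in *sen1-1* and −2.50 and −2.45 in *ctk1*Δ, so that the arrays did not overlap. The difference was 0.94 ± 0.31 (adjusted p = 0.0282 by limma). *SPL2* was higher by 0.49 ± 0.09 (adjusted p = 0.000894), under the fold minimum. The *PHO84* difference was not called when any array of the 2 mutants was left out (0.79 to 1.09, adjusted p of 0.0594 to 0.168).

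The reference channel itself was not level across the arrays. By the labels, its RNA came from the high-throughput extraction on 8 arrays, those of *rpb1-S2A*, *ctk1*Δ in YPD, *sen1-1*, *pcf11-ts2* and *pcf11-2*, and from the standard extraction on the other 14. With array intensities set to the same distribution, the log2 level of *PHO84* in the reference channel was 8.68 and 8.46 on the *sen1-1* arrays and 8.90 on that of *pcf11-2*. On the other 19 arrays it was between 9.65 and 10.7. The low level was thus not shared by all arrays with the high-throughput label. With that label it was 10.2 in *pcf11-ts2* and between 9.65 and 10.4 in the YPD profiles. With the standard label it was between 9.93 and 10.7. Between the labels, high-throughput minus standard, *PHO84* differed by −0.71 ± 0.19 (adjusted p = 0.00525), *VTC3* by −0.73 ± 0.08 (adjusted p = 8.74e-07) and *SPL2* by −0.31 ± 0.06 (adjusted p = 0.000419). *PHO8* differed by −0.52 ± 0.20 (adjusted p = 0.0362 by limma). *PHO89* and *PHO12* were higher by 0.37 ± 0.12 and 0.17 ± 0.05 (adjusted p = 0.0141 and 0.0167). Over all features 20 (0.314%) were higher by more than the fold minimum and 66 (1.04%) lower, none of them a member. The fit counts each array as independent, although arrays of the same profile share a reference label. These errors and p-values thus describe the arrays and do not test the protocol.

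Read in the mutant channel alone, *PHO84* stood at 7.12 and 6.95 in *sen1-1*, against 7.57 and 7.82 in *ctk1*Δ in SC. The *sen1-1* values were thus the lower ones, with a difference of −0.66 ± 0.25 (adjusted p = 0.0552), opposite in sign to the ratio. In *pcf11-2* the mutant channel read 10.1, and in *rtt103*Δ 10.1 and 10.2, although their ratios were 1.07 and −0.05. The 12 arrays of the 6 other lowered SC profiles held *PHO84* between 7.11 and 8.69, and the 4 YPD arrays between 12.8 and 13.2. The differences that held the same sign included *ctk1*Δ in YPD minus SC (5.11 ± 0.25, adjusted p = 3.92e-08), *sen1-1* minus the *pcf11* alleles (−4.48 ± 0.25, adjusted p = 6.73e-08) and *pcf11-ts2* minus *pcf11-2* (3.01 ± 0.37, adjusted p = 0.000768). Levels in 1 channel carry the difference between arrays that a ratio removes. For *VTC3* the mutant channel read 9.20 and 9.14 in *sen1-1*, against 9.02 and 9.14 in *rrp6*Δ, although their ratios were −0.33 and −1.11. The extraction label of the reference goes with the profile, so protocol and other differences between these arrays cannot be told apart in the reference levels.

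**Figure D4:**
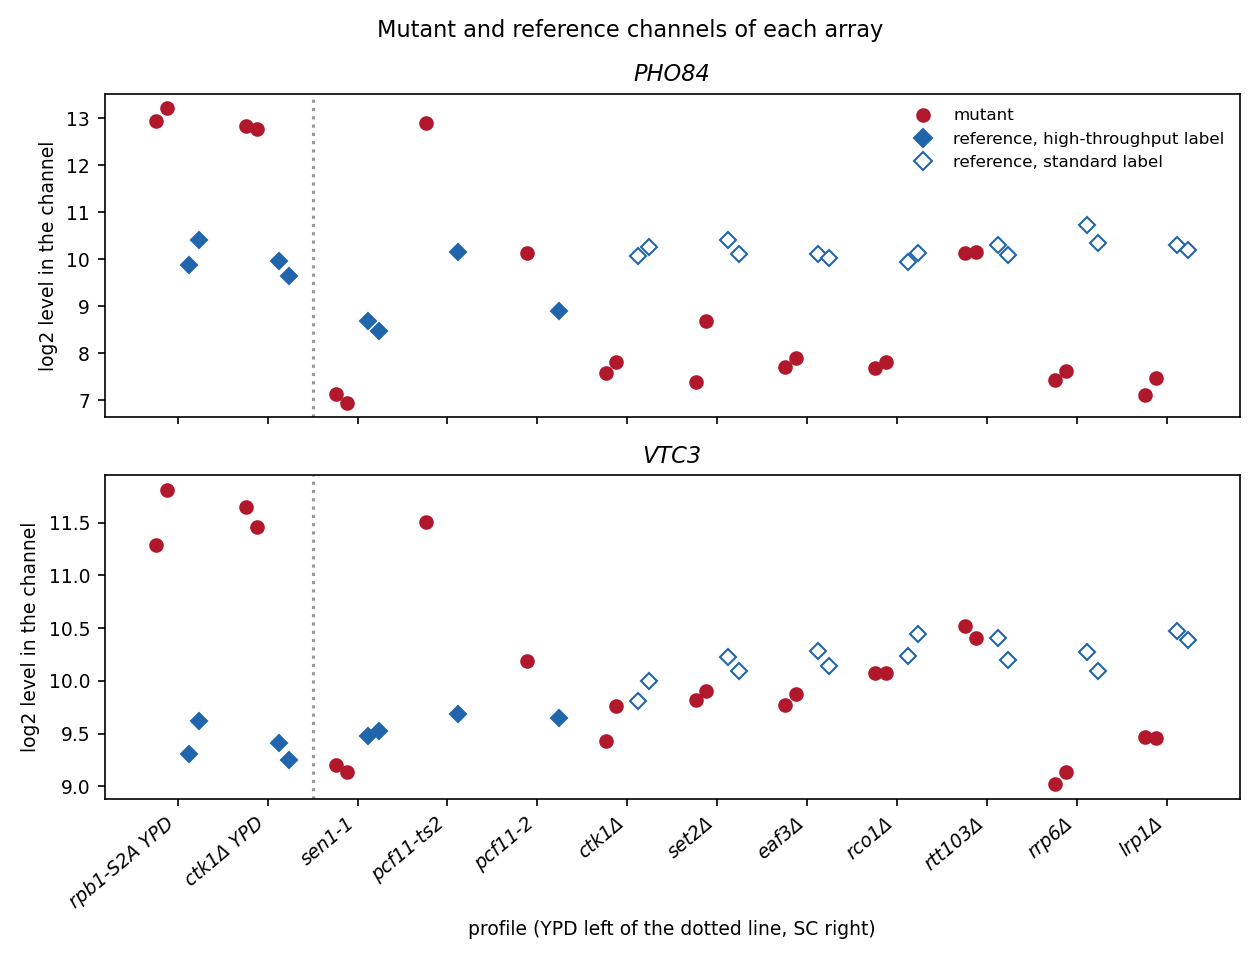
Log2 level of *PHO84* (top) and *VTC3* (bottom) in the mutant channel (circles) and the reference channel (diamonds) of each array, after scaling the arrays to a common intensity distribution, by profile on the horizontal axis (YPD left of the dotted line). Filled diamonds carry the high-throughput extraction label and open ones the standard label. The *PHO84* reference of *sen1-1* and *pcf11-2* is between 8.46 and 8.90 and that of the other arrays between 9.65 and 10.7.

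Within the 7 SC profiles whose reference had the standard label, 4 of 9 members passed the F-test and the fold minimum (*PHO84*, *PHO89*, *SPL2* and *VTC3*), where 17.2% of all features did. *PHO12*, *PHO8*, *VTC1* and *VTC4* also had an adjusted p under 0.05 (0.00493 to 0.026), with distances of 0.58 to 0.72 under the fold minimum, and *PHO81* had an adjusted p of 0.0735. These 7 profiles leave out *pcf11-ts2*, the highest SC profile of each member. Within the 3 with the high-throughput label, *sen1-1* and the *pcf11* alleles, 8 passed both, where 8.08% of all features did, and *PHO8* did not (adjusted p = 0.0981).

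Of 31 other genes of phosphate handling, 28 had a probe by symbol. They are regulators, low-affinity and mitochondrial carriers, further phosphatases, polyphosphate enzymes and inositol pyrophosphate enzymes. Over the SC profiles 8 of 280 values rose and 3 fell, and over the YPD profiles 3 of 56 rose and 2 fell, so that these shares were nearer to those of all features (2.66%, 0.974%, 7.01% and 3.93%). *PHO4*, *PHO2*, *PHO80* and *PHO85*, which encode the regulators of the pathway, were called in no profile. *PHO85* came nearest, at −0.66 in *rpb1-S2A* (adjusted p = 1.01e-06), −0.52 in *ctk1*Δ in YPD (adjusted p = 1.13e-05) and −0.73 in *ctk1*Δ in SC (adjusted p = 5.6e-07), under the fold minimum. *PPX1*, an exopolyphosphatase that degrades polyphosphate, fell in *rpb1-S2A* (−1.48 ± 0.09), *ctk1*Δ in SC (−0.91), *pcf11-2* (−0.87) and *rtt103*Δ (−0.82), and was lower in *rpb1-S2A* than in *ctk1*Δ in YPD by −0.78 ± 0.13 (adjusted p = 0.00173). *PHM8*, a nucleotide phosphatase, rose in *ctk1*Δ in YPD (0.79, with an SD of 0.72 between the arrays), *sen1-1* (0.92), *pcf11-ts2* (0.85), *pcf11-2* (0.96), *ctk1*Δ in SC (1.17) and *rrp6*Δ (1.11), a set of profiles in which *PHO84* went both ways.

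*PIC2*, a mitochondrial carrier, rose in *ctk1*Δ in YPD (1.2, with an SD of 1.06 between the arrays) and in SC (1.48, SD 0.13), and was lower in *sen1-1* than in *ctk1*Δ in SC (−0.84 ± 0.31, adjusted p = 0.0440). *ARG82*, an inositol polyphosphate kinase, rose in *rpb1-S2A* (0.91), *ctk1*Δ in SC (0.78) and *rrp6*Δ (0.80), and *GPP2*, a glycerol phosphatase, fell in *rpb1-S2A* (−0.87). *VTC2*, another subunit of the polyphosphate complex, and *PHM6*, a gene of unknown function known to respond to phosphate, were called in no profile but were higher in *ctk1*Δ in YPD than in SC, by 0.97 ± 0.06 (adjusted p = 2.76e-07) and 0.91 ± 0.14 (adjusted p = 0.000745).

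The 5 named genes whose ratios ran most like those of *PHO84* over the 12 profiles were *VTC3* (Pearson r = 0.971), *YJL052C-A* (0.968), *VTC1* (0.957), *SPL2* (0.950) and *PHO89* (0.950), among 5310 named genes. The remaining members ranked 6 (*PHO81*), 7 (*VTC4*), 9 (*PHO8*) and 34 (*PHO12*). The ratios of *YJL052C-A* were 0.65 in *rpb1-S2A*, 0.62 in *ctk1*Δ in YPD, 0.83 in *pcf11-ts2* and −0.36 in *rrp6*Δ. The 12 points share 1 reference, and the YPD profiles and *pcf11-ts2* are far from the others, so these values only describe the profiles.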

How the data were processed

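Each array compared RNA of a mutant with RNA of a common wild type reference. The deposited intensity values are scanner output per spot and channel, and the authors deposited log2 ratios of the same arrays, for which the submitters' processing notes name limma (version 2.12.0 on 6 arrays). Medians of the deposited log2 columns were −0.013 to 0.0387, and 6 columns that ran reference over mutant were turned. They served as an alternative. The scanner values were used in R 4.3.3 with limma 3.58.1: background correction by normexp with an offset of 50, loess within arrays, then means over spots and over probes of a gene, giving 6373 features. The fit held 1 coefficient per profile and a dye term, which equals the replicate letter. All 22 arrays entered it, and the reference counts as 1 control sample, whose own spread is left out. Calls needed an adjusted p under 0.05 and a fold over 1.7. Channel levels were compared after scaling average intensities to a common distribution. On simulated data 199 of 200 genes changed by 1 on the log2 scale were recovered for *ctk1*Δ and 192 for *pcf11-ts2*, over 6373 genes. Unchanged genes called were 0 and 1. The simulated noise was independent and normal with the fitted spread of each gene, as the model assumes. It held no error shared by a culture or reference, so it checks the procedure and not the precision of these arrays. Median signals were 272 to 1541 per array, and precision is limited by how few arrays there are. The genes named are the members, every gene of a wider phosphate list that was called, the 5 genes most like *PHO84* and the deleted genes. Members, lists and tests were chosen with earlier results of these data known. Alternatives changed the background correction, normalization, filter, dye term, centring, fold minimum and arrays.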

Additional observations from a re-analysis of the deposited data

Results flagged for a closer look

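The members that differed between the same deletion in 2 media, and between 2 alleles of 1 gene, were looked at again. In *ctk1*Δ, YPD minus SC, the log2 difference was 5.47 for *PHO84*, 2.53 for *VTC3*, 2.19 for *SPL2*, 2.12 for *PHO89*, 2.07 for *VTC1*, 1.12 for *VTC4*, 1.01 for *PHO81* and 0.984 for *PHO12*, each tested as a contrast in limma. In *pcf11-ts2* minus *pcf11-2* it was 2.09 for *PHO12*, 2.02 for *SPL2*, 1.37 for *VTC3*, 1.11 for *VTC1*, 1.03 for *PHO89* and 0.807 for *VTC4*, with 1 array for each allele. No group had 4 or more samples, so single arrays that stand apart from their group were not tested.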

How the results depend on the processing

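With 2 arrays or 1 per profile, errors rest on the spread pooled over profiles. Of 105 member results called in some setting, 57 were called as reported. Over the alternatives other than dropping the fold minimum, 2870 recalculated values kept their direction and call, 32 gained a call, 35 lost one and 3 turned sign. Of these, 2081 kept, 9 gained and 10 lost values came from leaving out single arrays. Most of those arrays belonged to another profile and could hardly move the estimate, so the number kept says little about stability. Fitted without the dye term, which is the replicate block, *sen1-1* minus *ctk1*Δ had 0 members called in place of 1, and *pcf11-ts2* minus *pcf11-2* had 4 in place of 6 (*VTC1* and *VTC4* were lost), and 8 in place of 9 differed among SC profiles. Over 45 pairs of profiles, deviations of same-lettered arrays correlated between −0.361 and 0.763, with a median of 0.38 and 39 pairs above 0.1. The letter equals the dye, so these correlations cannot decide whether cultures were paired, and the letters were not taken to pair them. With a normexp offset of 10, *rpb1-S2A* minus *ctk1*Δ in YPD had 2 members called. Centred on the median of the 12 profiles, 6 SC values fell in place of 13, and *PHO84* turned to 1.84 in *rtt103*Δ and 0.349 in *sen1-1*. This centring sets ratios against the typical mutant, and the cause was not tested further. With no fold minimum, 14 SC values rose, 44 fell, and 2 members were called in *rpb1-S2A* minus *ctk1*Δ and 2 in *sen1-1* minus *ctk1*Δ. With a fold minimum of 2, 8 SC values fell and 0 members were called in either contrast. In the mutant channel alone, chosen after seeing the data like the split by reference label, *sen1-1* minus *ctk1*Δ had 0 calls and *PHO84* turned to −0.66. Among the 7 SC profiles with the standard reference label, which leave out *pcf11-ts2*, 4 members in place of 9 passed the F-test and the fold minimum together. Leaving out each array of a pair in turn gave 12 to 14 SC falls, 8 SC rises, 14 to 15 YPD rises, 0 YPD falls, 9 members in the F-test, 7 to 8 for *ctk1*Δ in YPD minus SC, 0 to 1 for *rpb1-S2A* minus *ctk1*Δ, 6 for *sen1-1* minus *pcf11*, 6 to 7 for the *pcf11* alleles and 0 to 1 for *sen1-1* minus *ctk1*Δ. The *pcf11* arrays could not be left out.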
